A study of Mus musculus with 33 samples.

Results

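The transcripts described here are the noncoding RNAs, pseudogenes and provisional gene models that the study's expression table holds but its table of protein-coding counts does not. They were chosen by their name and their level, as rows absent from the count table whose symbol is Gm with a number, ends in Rik, starts with Snhg, or is Malat1 or Neat1, and whose mean log2 FPKM over 33 libraries was at least 2. FPKM is in general fragments scaled by transcript length and by library size, and the values are log2(FPKM + 1). As deposited, their 75th percentile is 2.94 in every library, while the summed FPKM differs between libraries. Of 27745 rows, 10615 were absent from the count table, 9213 of these had such a symbol, and 201 reached the mean of 2. They comprise 139 Gm symbols, 52 Rik symbols, 8 Snhg genes, Malat1 and Neat1. The mean chose them and is given as a description: just inside it stood Gm10790 (2.04), B130021K23Rik (2.04) and Gm9025 (2.01), and just outside it Gm47031 (2.0), Gm13391 (2.0) and Gm4759 (1.98).

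RNA came from cells sorted from brains of mice with the induced disease that the labels call Cortical MS, a mouse model of multiple sclerosis in the cortex, given either a CSF1R inhibitor or vehicle. All mice had this disease induction, and neither the compound, the dose, the strain, the age nor any untreated healthy mouse was given in the sources used here. CSF1R is the receptor through which macrophages and microglia receive survival signals. Blood-derived phagocytes were sorted as CD45-high CD11b-high CCR2+, activated microglia as CD45-high CD11b-high CCR2-, and resting microglia as CD45-int CD11b-int, each with 6 inhibitor and 5 vehicle libraries. Where nothing says that libraries came from separate animals, p-values measure only the spread between these samples.

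Malat1 and Neat1 are abundant long noncoding RNAs that stay in the nucleus, Malat1 in nuclear speckles, where splicing factors gather, and Neat1 as the scaffold of paraspeckles. Snhg genes are host genes: their introns carry small nucleolar RNAs, which guide chemical modification of ribosomal RNA, and the spliced remainder is usually short-lived. Processed pseudogenes are copies of messenger RNAs written back into the genome, so their reads are hard to tell from those of the parent gene. Many of the other models lie inside introns of coding genes, where reads can come from a separate transcript or from unspliced RNA of the host.

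Each of the 201 was placed in 1 class by its position and its sequence in the GENCODE M21 annotation of GRCm38. Coding copies, 64 in all, were those whose longest transcript matched a coding transcript elsewhere at 95% identity or more over at least 90% of its length, and 54 of these are annotated as pseudogenes. Another 50 lay outside coding genes, 41 lay across a coding gene on the opposite strand, and 31 lay within a coding gene on the same strand, 26 of them wholly in introns. The rest were 8 small nucleolar RNA hosts, 5 copies of mitochondrial genes, and Malat1 and Neat1. Symbols do not always mean noncoding: 9930104L06Rik is annotated as protein-coding in that release.

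The highest mean of all, 11.30, belonged to Gm28437, a single-exon pseudogene on chr1:24613189-24613971 that is identical over its whole length to mt-Co3, the mitochondrial gene for cytochrome oxidase subunit 3. The first 90 bases of both are shown because they show why reads of the pair cannot be told apart, the copy from chr1:24613882-24613971 on the minus strand and the gene from chrM:8607-8696 on the plus strand:
Gm28437: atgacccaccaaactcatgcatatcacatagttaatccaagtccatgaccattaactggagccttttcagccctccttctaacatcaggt
mt-Co3: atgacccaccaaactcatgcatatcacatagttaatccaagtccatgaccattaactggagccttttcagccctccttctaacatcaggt

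Gm15500, on chromosome 7, matches Rpl5, which encodes a protein of the large ribosomal subunit, at 100% identity. A stretch of 60 bases within 1 coding exon is shown, the copy from chr7:114706101-114706160 on the minus strand and the gene from chr5:107901870-107901929 on the plus strand:
Gm15500: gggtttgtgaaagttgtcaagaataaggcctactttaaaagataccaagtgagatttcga
Rpl5: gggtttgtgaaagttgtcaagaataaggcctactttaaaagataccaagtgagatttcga

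Gm15459, on chromosome 5, is a processed pseudogene of Hspa8, the constitutive heat shock chaperone, at 99.7% identity. One of its few differences is shown, counted from 1 at the first base, as G41A from Hspa8 to the copy, with that base in capitals; the copy is read from chr5:5783423-5783482 on the minus strand and the gene from chr9:40801996-40802055 on the plus strand:
Gm15459: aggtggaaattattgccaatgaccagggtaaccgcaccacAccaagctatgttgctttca
Hspa8: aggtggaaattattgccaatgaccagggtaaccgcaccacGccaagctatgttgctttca

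Gm37376, the third highest mean at 9.77, is a single-exon model of 453 bases at chr19:5801941-5802393 on the plus strand, inside Malat1, which runs from chr19:5795690-5802672 on the minus strand. The kit named in the labels is not described there as keeping strand, so a Malat1 fragment can be counted for either. The same 60 bases, chr19:5801941-5802000, are shown as each strand reads them:
Gm37376: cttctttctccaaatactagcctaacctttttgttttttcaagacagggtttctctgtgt
Malat1: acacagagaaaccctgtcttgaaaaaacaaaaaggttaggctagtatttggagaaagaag

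Gm48302 and Gm45222, which lie in introns on the strand of their host, carry the differences described below for the inhibitor. Gm48302 is a single exon at chr13:75727279-75729162 in an intron of Ell2, which encodes a transcription elongation factor, and Gm45222 is a single exon at chr7:90145948-90150254 in an intron of Picalm, which encodes a clathrin assembly protein. Their first 90 bases, on the plus strand, follow:
Gm48302: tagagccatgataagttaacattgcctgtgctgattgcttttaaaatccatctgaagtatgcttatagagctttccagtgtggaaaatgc
Gm45222: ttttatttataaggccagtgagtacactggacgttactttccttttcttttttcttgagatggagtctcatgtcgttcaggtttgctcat

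Library totals over the coding table ran from 11789803 to 22146705 counts, and 9742 to 14861 coding genes had at least 1 count. Neutrophil markers stood apart in activated microglia: 10 listed genes took 4.98 to 26.2% of summed FPKM under inhibitor and 5.84 to 17.4% under vehicle there, and at most 0.0945% in any library of the other populations. In the same gate, 10 homeostatic microglia markers took 0.0541 to 0.375%, with medians of 0.0877% under inhibitor and 0.196% under vehicle. Blood-derived phagocytes had 0.215 to 0.327%, with medians of 0.267% and 0.256%, and resting microglia 1.93 to 3.07%. The share in this gate thus lay mostly below that of phagocytes and wholly below that of resting microglia. The name activated microglia therefore stands here for its gate. In activated microglia 3 libraries had under 11000 detected genes: inhibitor replicates 1 and 2 and vehicle replicate 2. Ccr2 averaged 6.17 in inhibitor and 6.03 in vehicle libraries of blood-derived phagocytes, 3.30 and 4.53 in activated microglia, and 0.76 and 1.32 in resting microglia. In bulk libraries such as these, fewer cells of a type and less RNA per cell cannot be told apart.

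Together the 201 transcripts took a small part of the summed FPKM. In blood-derived phagocytes they took 1.64 ± 0.15% under inhibitor (SD, n = 6) and 1.36 ± 0.09% under vehicle (SD, n = 5). The shares were 2.20 ± 0.40% and 2.42 ± 0.33% in activated microglia, and 2.02 ± 0.29% and 2.20 ± 0.37% in resting microglia, inhibitor and vehicle. Their group means reached 2 in all 6 groups for 113 of them and in 5 groups for 25, in 4 for 40, in 3 for 14 and in 2 for 9. The lowest of the 6 group means was that of vehicle blood-derived phagocytes for 74, and the highest was that of activated microglia under inhibitor for 56 and under vehicle for 44.

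Malat1 was among the most abundant of them everywhere. In blood-derived phagocytes it stood between 9.36 and 10.43 under inhibitor (median 10.07), and at 8.75, 9.01, 9.04, 9.22 and 9.75 under vehicle. In activated microglia it stood between 10.63 and 12.45 under inhibitor (median 11.25), and at 11.09, 11.17, 11.30, 11.51 and 11.59 under vehicle. Resting microglia had 9.39 to 10.84 under inhibitor (median 10.67) and 8.90, 10.28, 10.62, 10.91 and 11.02 under vehicle. By group mean the activated gate was the highest and vehicle phagocytes the lowest, and inhibitor and vehicle overlapped in every population. Of the other transcripts, the nearest to Malat1 over the 33 libraries was Gm37376 (Pearson r = 0.986), which shares its sequence as shown above, followed by the pseudogene Gm48269 (r = 0.928).

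Neat1 spread more widely between populations. Its level was 4.95 to 5.84 in inhibitor phagocytes (median 5.28), against 4.27, 4.36, 4.39, 5.07 and 5.17 in vehicle phagocytes. It was 7.19 to 8.62 in activated microglia under inhibitor (median 7.66), against 7.16, 7.44, 7.89, 8.0 and 8.07 under vehicle. Resting microglia had 4.25 to 6.33 under inhibitor (median 5.91), against 4.09, 5.62, 5.77, 5.83 and 5.86 under vehicle. The activated gate lay above every library of the other populations. Gm26809 and Gm26740 came nearest to it, with r of 0.944 and 0.943 over the 33 libraries, which differ in population, so that both correlations are descriptions.

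Resting microglia held 3 libraries that stood apart: inhibitor replicates 1 and 5 and vehicle replicate 5. Their mean over Malat1 and Neat1 was 6.82, 6.92 and 6.50, against 8.07 to 8.50 in the other 8, and their mean over the 31 members within coding genes was 2.01, 2.15 and 2.0, against 2.79 to 3.14. In blood-derived phagocytes, inhibitor replicate 6 lay within the range of the vehicle libraries on both measures, at 7.16 and 2.08. Both classes were thus low in the same libraries.

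**Figure D1:**
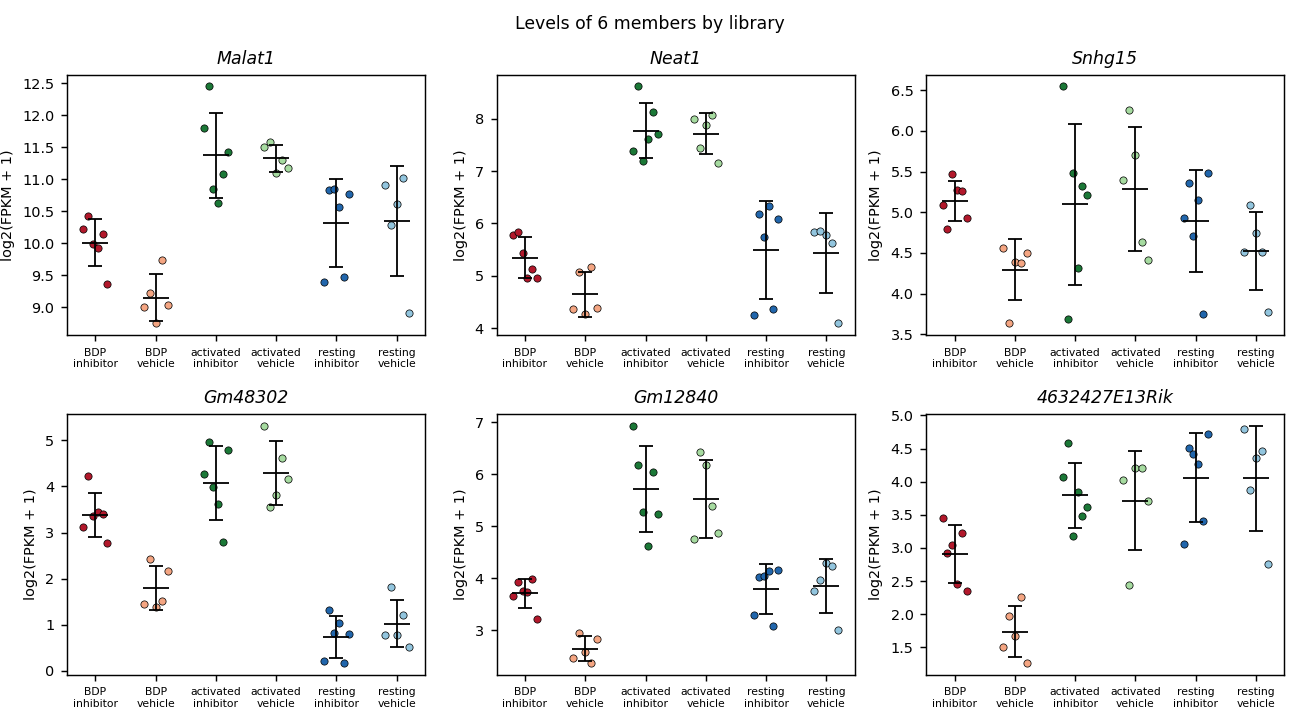
Log2(FPKM + 1) of Malat1, Neat1, Snhg15, Gm48302, Gm12840 and 4632427E13Rik (y axes, each with its own range that does not start at 0) in blood-derived phagocytes (BDP), activated microglia and resting microglia under inhibitor and vehicle (x axes); points are libraries and black bars mean ± SD (n = 6 inhibitor, n = 5 vehicle). Gm48302 and Gm12840 lie higher in all inhibitor than in all vehicle libraries of BDP, and Malat1 and Neat1 lie highest in activated microglia.

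The inhibitor was compared with vehicle first in blood-derived phagocytes, the comparison for whose rise these transcripts were proposed, so the counts that follow are a description. Of 199 tested, 24 were higher under inhibitor and 0 lower at an adjusted p under 0.05 (limma, Benjamini-Hochberg over all rows tested). Over all 10697 rows tested, 1.20% were called in either direction, 0.804% as higher and 0.393% as lower, 86 against 42, a split that became 84 against 17 with equal sums of FPKM and 103 against 24 with TMM factors. The median log2 difference was 0.25 for the 199 and -0.05 for all rows, and 83 of the 199 had an unadjusted p under 0.05, against 18.4% of all rows. In 24 of the 199 every inhibitor library exceeded every vehicle library, as did 1.18% of all rows tested, and 19 of the 24 called were among them. In 1, Gm5641 (-0.35, adjusted p = 0.0513), every inhibitor library lay below every vehicle library, as in 1.94% of all rows. With no filter on low rows 0 of the 24 passed, and with all 33 libraries in 1 fit 0 passed, so each call named below ends in both settings. The count also rests on single libraries: it was 11, 13, 8 and 8 without inhibitor replicates 1, 2, 3 and 5, 50 without inhibitor replicate 6, and 1, 15, 12 and 13 without vehicle replicates 1, 2, 3 and 5, while all 24 kept a positive difference in each of these fits.

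Beside this, total counts were 16462745 to 20508860 under inhibitor and 18289900 to 20241074 under vehicle in the phagocytes, and detected genes 12774 to 13884 and 13213 to 13617. The 10 neutrophil markers took 0.0318 to 0.0776% of summed FPKM under inhibitor and 0.0298 to 0.0490% under vehicle, with Cxcr2 under 1 in all 11 libraries. The 7 T cell markers took 0.0018 to 0.0191% and 0.0010 to 0.0053%, and the 7 NK cell markers 0.0039 to 0.0182% and 0.0009 to 0.0051%. Both upper values under inhibitor were those of replicate 1, and the other inhibitor libraries reached at most 0.0054% and 0.0065%. The 8 monocyte-derived cell markers took 0.298 to 0.511% under inhibitor and 0.305 to 1.05% under vehicle, the highest in vehicle replicate 2. Their part in the result was not tested.

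Members within a coding gene on the same strand made up 9 of the 24, of 31 tested, with a median log2 difference of 0.71 and 28 above 0. Those outside coding genes gave 8 of 48 (median 0.31), among them Gm37376, which lies inside Malat1 and can take its fragments. Those across a coding gene on the opposite strand gave 4 of 41 (median 0.36), and the small nucleolar RNA hosts 1 of 8 (median 0.30). Of 64 coding copies 2 were called (median 0.01), and of 5 mitochondrial copies 0 (median 0.14; limma, 0 also at an unadjusted p under 0.05). Differences between classes were not tested.

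**Figure D2:**
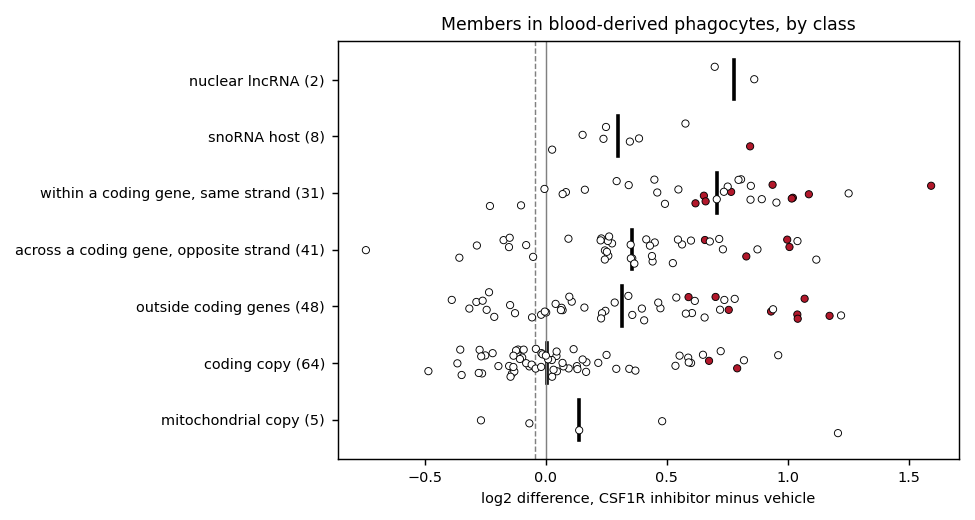
Log2 difference between inhibitor and vehicle in blood-derived phagocytes (x axis) for each tested transcript, by class (rows, with the number tested); filled points passed an adjusted p under 0.05, thick bars are class medians, the solid line is 0 and the dashed line the median of all rows tested (-0.05). The class within coding genes is centred at 0.71 and the coding copies at 0.01.

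Gm48302, in the intron of Ell2, had the largest difference of the 24. It stood at 2.77 to 4.22 in inhibitor phagocytes (median 3.38), against 1.39, 1.45, 1.52, 2.18 and 2.44 in vehicle phagocytes, with no overlap. The log2 difference was 1.59 ± 0.25 (SE, adjusted p = 0.0175). Ell2 itself differed by -0.05 (adjusted p = 0.886).

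Gm45222, in the intron of Picalm, stood at 2.17 to 3.14 under inhibitor (median 2.51), against 0.96, 1.52, 1.60, 1.84 and 2.01 under vehicle, again without overlap. Its difference was 1.02 ± 0.21 (SE, adjusted p = 0.0342), while that of Picalm was 0.28 (adjusted p = 0.151). Picalm holds 2 more of the 201 on the same strand, Gm45223 (1.25, adjusted p = 0.0827) and Gm45220 (0.85, adjusted p = 0.0616), neither of which passed; the 3 share a host and are not independent. Gm37347 lies in an intron of Il1r2, the decoy receptor for interleukin-1, at chr1:40088511-40091581. It stood at 1.31 to 2.38 under inhibitor (median 1.76) and at 0.27, 0.73, 0.91, 1.04 and 1.08 under vehicle. Its vehicle mean was below 1, so it reached the filter mean of 1 for testing only through the inhibitor libraries. Its difference of 1.02 ± 0.21 (SE) is therefore given as a description, without a p, and the counts of calls include it. Il1r2 differed by 0.25 (adjusted p = 0.719).

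In 27 pairs within coding genes on the same strand both the member and its coding host were tested, over 23 hosts. The members' median difference was 0.74 and that of the hosts -0.00, and the member's difference exceeded the host's in 23 of the 27. Of these members 8 were called higher, against 1 host, Mxd1 (0.68), a repressor of the Myc network, and 0 hosts lower. For the opposite strand, 31 pairs gave medians of 0.36 and -0.12, with 29 members above their host, 3 members called and 0 hosts (limma).

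**Figure D3:**
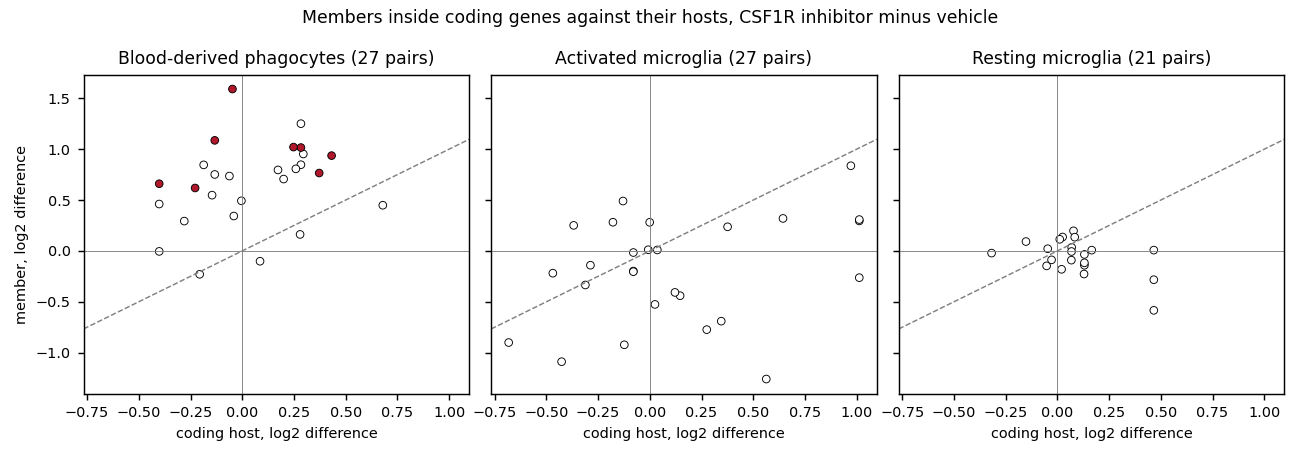
Log2 difference between inhibitor and vehicle of each member within a coding gene on the same strand (y axis) against that of its coding host (x axis) in the 3 populations, 1 point per pair; filled points are members that passed an adjusted p under 0.05, and the dashed line marks equal differences. In blood-derived phagocytes 23 of 27 points lie above the line, in activated microglia 8 of 27 and in resting microglia 7 of 21.

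Among those outside coding genes, Gm12840 (chr4:117700188-117700923, a spliced long intergenic RNA) had the smallest p of all 199. It stood at 3.21 to 3.98 under inhibitor (median 3.74) and at 2.37, 2.46, 2.59, 2.84 and 2.94 under vehicle, a log2 difference of 1.07 ± 0.14 (SE, adjusted p = 0.0103). 4632427E13Rik, a long noncoding RNA from a bidirectional promoter at chr7:92734166-92741468, stood at 2.35 to 3.46 under inhibitor (median 2.98) and at 1.27, 1.51, 1.68, 1.97 and 2.26 under vehicle, a difference of 1.17 ± 0.21 (SE, adjusted p = 0.0233). The provisional single-exon models Gm37472 and 5330406M23Rik differed by 1.04 each (adjusted p of 0.0175 and 0.0179). All 4 separated the groups without overlap.

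Gm48309, in an intron of Nbas on the opposite strand (chr12:13423260-13425717), stood at 3.46 to 4.37 under inhibitor and at 2.65, 2.78, 2.82, 3.24 and 3.25 under vehicle. Its difference was 1.01 ± 0.17 (SE, adjusted p = 0.0175). Gm26885, whose exons overlap those of the kinase gene Pim1 on the opposite strand, had a difference of 1.00 ± 0.14 (SE, adjusted p = 0.0103); it is a long multi-exon antisense model, and reads over Pim1 exons cannot be assigned to a strand here.

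Malat1 missed the threshold narrowly in the phagocytes, at 0.86 ± 0.19 (SE, adjusted p = 0.0501), whereas Gm37376, which lies inside it, passed at 0.93 ± 0.19 (SE, adjusted p = 0.0403). Malat1 passed in 5 of 10 other settings, with adjusted p between 0.0168 and 1.0, the highest with all 33 libraries in 1 fit. Leaving out 1 library, it passed in 2 of 11 fits, without inhibitor replicate 6 (0.99, adjusted p = 0.00728) or vehicle replicate 4 (1.01, adjusted p = 0.0214), and the highest adjusted p was 0.142. Neat1 had a difference of 0.70 ± 0.23 (SE, adjusted p = 0.142).

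Snhg15 was the small nucleolar RNA host that passed. It stood at 4.79 to 5.46 under inhibitor (median 5.18) and at 3.63, 4.38, 4.38, 4.50 and 4.56 under vehicle, and differed by 0.84 ± 0.16 (SE, adjusted p = 0.0295). The other 7 hosts also had positive differences that did not pass: Snhg12 at 0.58, Snhg5 at 0.39, Snhg8 at 0.35, Snhg3 at 0.25, Snhg1 at 0.24, Snhg20 at 0.15 and Snhg6 at 0.03. Snhg8 separated the groups without overlap, with an adjusted p of 0.12.

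Of the 201, 58 had an entry in the RefSeq promoter table (69 promoters, GRCm38.p6), among them 7 of the 24 called, and each entry spans 250 bases before to 50 after a transcript's start. The letters TGACGTCA, bound by CREB, were in 1.79% of all 32851 promoters on either strand, and in 2.90% of those of the 201, those of Snhg15 and 1300002E11Rik. The letters GAGGAAGT, a site of the myeloid factor PU.1, were in 3.20% of all and 8.70% of theirs, and among the 7 called in that of C920009B18Rik. The shares of the 201 stand for 2 and 6 of 69 promoters, and neither was tested against that of all promoters. The Snhg15 promoter is shown because Snhg15 is the small nucleolar RNA host that passed, chr11:6528711-6529010 on the minus strand, with TGACGTCA in capitals:
Snhg15: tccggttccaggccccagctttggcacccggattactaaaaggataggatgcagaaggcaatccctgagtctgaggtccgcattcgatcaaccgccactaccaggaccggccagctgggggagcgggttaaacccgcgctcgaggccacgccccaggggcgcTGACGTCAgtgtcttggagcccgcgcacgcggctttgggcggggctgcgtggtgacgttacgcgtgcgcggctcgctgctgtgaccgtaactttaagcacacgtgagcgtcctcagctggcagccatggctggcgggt

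Lists of related genes were read out of the same fit in the phagocytes, where 1.20% of all rows were called. Of 13 tested long noncoding RNAs with names of their own, 2 were higher: Gas5 (0.59, adjusted p = 0.0295), itself a small nucleolar RNA host, and Mir142hg (0.89, adjusted p = 0.0487), the host of the blood-cell microRNA miR-142. Of 15 nuclear speckle proteins 2 were higher, the splicing factor Srsf5 (0.45, adjusted p = 0.0175) and the scaffold protein Srrm2 (0.45, adjusted p = 0.0443), with a list median of 0.28. By limma 0 of 18 genes of nuclear RNA decay, 0 of 14 of nonsense-mediated decay and 0 of 14 small nucleolar ribonucleoprotein genes passed, with medians of -0.04, 0.04 and -0.00, against -0.05 for all rows.

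In activated microglia limma called 0 of 200 for the inhibitor, as it did 0% of all 11135 rows, with 6 of the 200 and 702 of all rows (6.30%) at an unadjusted p under 0.05. In 1 of the 200, Gm14584, every inhibitor library exceeded every vehicle library (0.359% of all rows), and in 1, 4930430E12Rik, every one lay below (0.296%). The median difference was -0.03 for the 200 and 0.02 for all rows. Those with the smallest p were 4930430E12Rik (-1.95, adjusted p = 0.778), Gm14584 (1.48, adjusted p = 0.778) and Gm6712 (-1.68, adjusted p = 0.778). Malat1 differed by 0.04 ± 0.30 (SE) and Neat1 by 0.06 ± 0.28 (SE). The spread between libraries was wider here, with an SE of 0.42 for Gm48302 against 0.25 in the phagocytes, and neutrophil markers ranged as given above.

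In resting microglia limma called 0 of 192, and 0% of all 11200 rows, with 10 of the 192 and 568 of all rows (5.07%) at an unadjusted p under 0.05. The medians were -0.02 for the 192 and 0.01 for all rows. The smallest p belonged to Gm10557 (0.26, adjusted p = 0.887), Gm14005 (-0.53, adjusted p = 0.897) and Gm8995 (-0.41, adjusted p = 0.928). Malat1 differed by -0.03 ± 0.42 (SE) and Snhg15 by 0.37 ± 0.32 (SE).

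The difference of the inhibitor effects was tested directly, and limma called 0 transcripts in each of the 3 pairs of populations. At an unadjusted p under 0.05 stood 32 of 199 for phagocytes minus resting microglia (7.75% of all rows), 34 of 199 for phagocytes minus activated microglia (7.85% of all rows) and 10 of 201 for activated minus resting microglia (6.61% of all rows). Gm48302 had the smallest p for phagocytes minus resting microglia, a difference of effects of 1.88 with a 95% interval of 1.10 to 2.66 (adjusted p = 0.165). For phagocytes minus activated microglia its value was 1.81, with an interval of 0.73 to 2.89 (adjusted p = 0.532). Malat1 had differences of effects of 0.90 and 0.82 (adjusted p of 0.66 and 0.605). The rise in blood-derived phagocytes was therefore not shown to differ from the effect in the other populations.

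**Figure D4:**
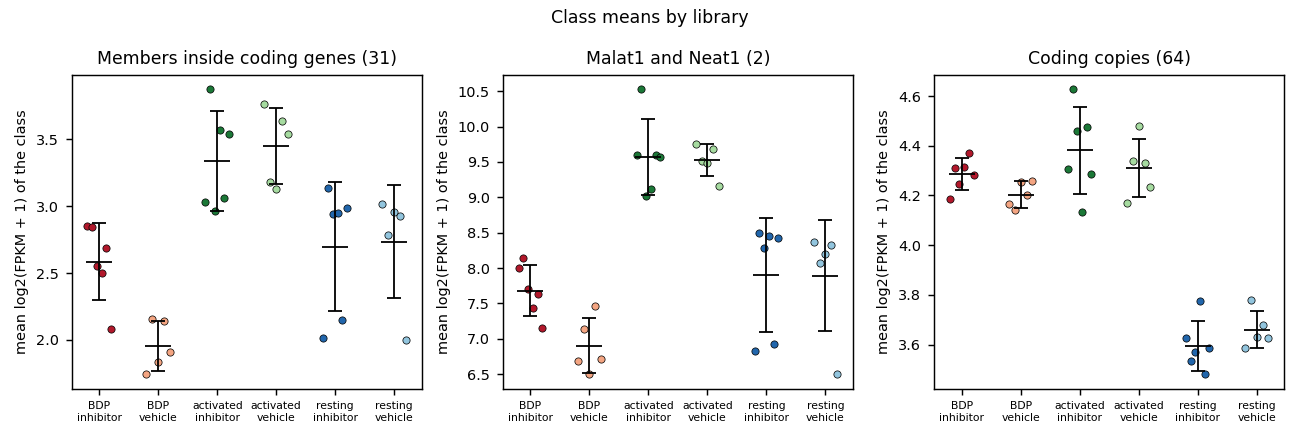
Mean log2(FPKM + 1) over the members within coding genes (left), Malat1 and Neat1 (centre) and coding copies (right) in each library, by population and treatment (BDP, blood-derived phagocytes; n = 6 inhibitor, n = 5 vehicle); black bars are mean ± SD and the y axes do not start at 0. Class means within coding genes are 2.59 in inhibitor and 1.96 in vehicle BDP, and coding copies lie lowest in resting microglia.

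The populations of vehicle mice were compared next, 5 libraries each. Of the 201, 49 reached the selecting mean of 2 only through their highest population, 23 through activated microglia, 21 through resting microglia and 5 through phagocytes, so these had to differ. Among them are 4833407H14Rik, I830127L07Rik, Gm37347, Gm10790, A830008E24Rik, 4930430E12Rik and Gm15931, whose differences between populations are given as a description, without a p, and the counts include them. In activated against resting microglia 66 of 201 were higher and 19 lower, where 21.2% of all 11459 rows were higher and 19.6% lower, 40.9% in all. With each library scaled to equal sums of FPKM the split became 43 against 36, and the median of all rows moved by this scaling to -0.45, against -0.10 without it; the median of the 201 was -0.05 with it and 0.31 without it, above that of all rows in both. Every activated library exceeded every resting one in 48 (17.3% of all rows) and lay below every one in 14 (16.3%).

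Neat1 was higher in activated than in resting microglia by 2.28 ± 0.32 (SE, adjusted p = 1.2e-04) and Malat1 by 0.98 ± 0.33 (SE, adjusted p = 0.031), both without overlap. Malat1 did not pass with equal sums (0.58, adjusted p = 0.192), array weights (0.72, adjusted p = 0.163), detected genes as a covariate (0.80, adjusted p = 0.291) or no filter on low rows (adjusted p = 0.129), nor without activated microglia vehicle replicates 1 or 4 or resting microglia vehicle replicate 2 (adjusted p of 0.0615, 0.0555 and 0.0562). Without resting microglia vehicle replicate 5 its difference was 0.62 (adjusted p = 0.02). 4833407H14Rik, an intergenic RNA at chr19:53460622-53462723, stood at 6.05, 6.16, 6.42, 6.74 and 6.80 in activated and at 0.19, 0.79, 0.79, 1.03 and 1.06 in resting microglia (5.66 ± 0.23, SE). I830127L07Rik, an annotated pseudogene, stood at 5.45, 5.64, 5.97, 7.28 and 7.99 in activated microglia and was listed at 0 in 3 and at 0.20 and 0.69 in the other 2 resting libraries (6.29 ± 0.44, SE).

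The intronic Gm37347 was higher in activated microglia by 4.47 and its host Il1r2 by 8.20, Gm45153 by 3.60 and its host Xylt1, a proteoglycan synthesis enzyme, by 3.33. Across 26 pairs the median was 0.15 for members and 0.38 for hosts, with r = 0.81 between them as a description. Neutrophil markers were 5.84 to 17.4% of summed FPKM in activated and 0.0495 to 0.0945% in resting microglia of vehicle mice. The 8 monocyte-derived cell markers took 0.403 to 0.736% and 0.0093 to 0.0197%, the 7 NK cell markers 0.0638 to 0.334% and at most 0.0003%, and the 7 T cell markers 0.0094 to 0.0313% and 0.0004 to 0.0006%. The part of these cell types in the differences was not tested.

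Lower in activated than in resting microglia were Gm10790 (-3.64 ± 0.41, SE), A830008E24Rik (-3.18 ± 0.52, SE), E230029C05Rik (-1.67 ± 0.23, SE), 2610005L07Rik (-1.49 ± 0.16, SE) and Gm26917 (-1.08 ± 0.15, SE). Gm26917 is a model outside coding genes, at chr17:39843013-39846341, and the part of ribosomal RNA in its reads was not tested. Gm10790 had the widest contrast, at 0.00, 0.20, 1.24, 1.65 and 2.16 in activated and 4.06, 4.58, 4.72, 4.96 and 5.11 in resting microglia.

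In blood-derived phagocytes against resting microglia 66 of 198 were higher and 86 lower, where 36.6% of all 11049 rows were higher and 28% lower, 64.6% in all. Here too part of the split follows from the selection, through the 21 that reached its mean only in resting microglia and the 5 only in phagocytes. Every phagocyte library exceeded every resting one in 52 (28.7% of all rows) and lay below every one in 49 (19.9%). Equal sums of FPKM changed the split to 46 against 100 and moved the median of all rows to -0.26, against 0.07 without it. Of the classes, 40 of 64 coding copies were higher and 14 lower (median 0.68), against 5 higher and 19 lower of 29 within coding genes on the same strand (median -1.03), and 6 higher and 27 lower of 41 on the opposite strand (median -0.80).

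Gm15922 and Gm15931, copies of Pira2 and Pirb, which encode paired immunoglobulin-like receptors of myeloid cells, were higher in phagocytes by 2.38 ± 0.11 and 3.33 ± 0.19 (SE), with an adjusted p of 5.7e-10 for Gm15922. Gm15931 stood at 3.79, 4.14, 4.27, 4.40 and 4.52 in phagocytes and at 0.41, 0.75, 0.86, 1.02 and 1.46 in resting microglia. Gm4735, whose best coding match was the enolase gene Eno1b, was higher by 1.54. Gm8822, a copy of the actin-nucleation gene Actr3, was higher by 1.55. A best match need not be the gene a copy came from. Over the 33 libraries Gm4735 had r = 0.996 with Eno1b and Gm8822 r = 0.984 with Actr3. These are high values: over all 64 coding copies the median r was 0.76, and 50 of the 64 exceeded 0.5. Such copies share nearly all their sequence with a coding gene that was measured, so their differences cannot be told apart from those of that gene.

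4930430E12Rik, a spliced antisense RNA at chr4:6352105-6357530, stood at 4.29, 4.49, 4.56, 4.64 and 4.85 in phagocytes of vehicle mice, against 0.29, 0.32, 0.67, 0.97 and 0.98 in resting microglia (3.92 ± 0.16, SE). Against activated microglia, at 2.71, 3.01, 3.29, 3.67 and 3.90, its difference was 1.25 ± 0.23 (SE). On the other side stood Gm10790, lower in phagocytes than in resting microglia by 4.41 on the log2 scale (coded as -4.41 ± 0.19, SE), and A830008E24Rik, at 0.13, 0.15, 0.58, 0.88 and 0.98 in phagocytes and 3.77, 4.0, 4.51, 4.62 and 5.37 in resting microglia (-3.91 ± 0.28, SE). Homeostatic microglia markers were 0.236 to 0.327% of summed FPKM in these phagocytes and 1.93 to 2.88% in resting microglia.

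Malat1 was lower in phagocytes than in resting microglia by -1.19 ± 0.38 on the signed scale (SE, adjusted p = 0.0186), though the groups overlapped, and Neat1 did not pass (-0.79 ± 0.36, SE, adjusted p = 0.0838). Without resting microglia vehicle replicate 5, the low library named above, Malat1 differed by -1.56 (adjusted p = 1.9e-05), and it did not pass with detected genes as a covariate (-1.31, adjusted p = 0.179) or with no filter on low rows (adjusted p = 0.0593). Snhg6 was higher in phagocytes by 1.37 ± 0.22 (SE, adjusted p = 1.5e-04), Snhg1 by 0.42 ± 0.15 (SE, adjusted p = 0.0213), and Snhg20 was lower (-0.89 ± 0.22, SE, adjusted p = 0.00292).

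In blood-derived phagocytes against activated microglia 19 of 199 were higher and 81 lower, where 15.5% of all 10958 rows were higher and 14.1% lower, 29.6% in all. Of the 201, 23 reached the selecting mean only through activated microglia and 5 only through phagocytes. Part of this split, and of the medians and class counts below, therefore follows from the selection. Every phagocyte library exceeded every activated one in 16 (14.9% of all rows) and lay below every one in 68 (11.7%). The median difference was -0.67 for the 199 and 0.19 for all rows. Within coding genes on the same strand 23 of 31 were lower and 0 higher (median -1.64), and on the opposite strand 20 of 41 were lower and 0 higher (median -0.94), whereas of 64 coding copies 12 were higher and 13 lower (median 0.15). Neat1 was lower by -3.06 ± 0.23 and Malat1 by -2.18 ± 0.18 on the signed scale (SE, adjusted p of 2.8e-06 and 5.8e-06), both without overlap. In 27 pairs within coding genes the median was -1.64 for members and -0.60 for hosts, with 6 members above their host.

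Of the mitochondrial copies 3 of 5 were lower in phagocytes. Genes of the mitochondrial genome took 1.77 ± 0.25% of summed FPKM in vehicle phagocytes and 3.11 ± 0.50% in vehicle activated microglia (SD, n = 5 each). The copies share nearly all their sequence with such genes, so a difference cannot be assigned to copy or gene. Their levels mostly did not move together, however. Over the 33 libraries the median r between copy and gene was 0.21, and 1 of the 5 exceeded 0.5. Gm29216, which matches mt-Co1, stood at 1.77, 1.87, 1.89, 3.08 and 4.29 in phagocytes and at 3.32, 8.90, 8.95, 8.96 and 9.66 in activated microglia (-5.38 ± 1.03, SE, adjusted p = 0.00227), with overlap. 4833407H14Rik stood at 1.23, 1.45, 1.54, 1.56 and 1.62 in phagocytes and as given above in activated microglia (-4.96 ± 0.19, SE). Gm36161 (1.49 ± 0.21, SE), Gm15931 (1.40 ± 0.22, SE), Gm8615 (1.12 ± 0.26, SE) and Gm15459 (1.08 ± 0.17, SE), all copies, were higher in phagocytes. Without activated microglia vehicle replicate 2, the library of this comparison with under 11000 detected genes, 28 were higher and 91 lower. Neutrophil markers took 0.0298 to 0.0490% of summed FPKM in phagocytes and 5.84 to 17.4% in activated microglia, NK cell markers 0.0009 to 0.0051% and 0.0638 to 0.334%, and T cell markers 0.0010 to 0.0053% and 0.0094 to 0.0313%. Monocyte-derived cell markers took 0.305 to 1.05% in phagocytes (median 0.343%) and 0.403 to 0.736% in activated microglia (median 0.563%). The part of these cell types was not tested.

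The coding copies were compared with the genes they match. Their 64 transcripts match 56 coding genes, 10 of the copies with a ribosomal protein gene as parent, at a median identity of 99.5%, and 12 match without a difference. In 23 the copy's mean level over the 33 libraries was above that of the gene it matches. Gm15500 averaged 7.40 and Rpl5 2.16, Gm10275 averaged 6.77 and Rpl12 3.41, and Gm10177 averaged 5.90 and Sec61g 2.34, each pair identical over the matched length. Both Hspa8 copies, Gm26825 (8.45) and Gm15459 (7.62), lie over the same bases of chromosome 5, and Hspa8 averaged 9.72. Gm10123, a copy of Ppia, the cyclophilin A gene, averaged 7.89, and Gm13394, a copy of the glycolytic gene Gapdh, 7.14. How shared reads were divided is not given in the sources used here, so a copy's level and its parent's are uncertain together.

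The 5 mitochondrial copies lie side by side on chromosome 1, between positions 24612407 and 24616197, at 99.8 to 100% identity. Gm28437 averaged 11.30 and mt-Co3 10.39, and Gm10222 averaged 5.84 and mt-Nd4l 2.48, while Gm28661 (5.97), Gm10925 (5.67) and Gm29216 (4.42) lay below mt-Co2 (10.81), mt-Atp6 (10.97) and mt-Co1 (11.30). Under inhibitor in the phagocytes the 5 averaged 6.03 ± 0.34 per library (SD, n = 6), against 5.73 ± 1.00 under vehicle (SD, n = 5), a difference within the spread of the libraries.

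**Figure D5:**
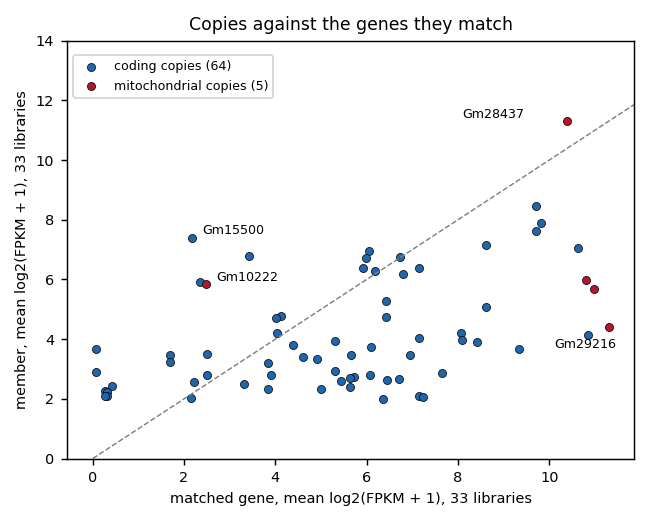
Mean log2(FPKM + 1) over 33 libraries of each copy (y axis) against that of the coding or mitochondrial gene its sequence matches (x axis), with the dashed line at equal levels. Gm15500, Gm10222 and Gm28437 lie above the line, as do 23 of 64 coding copies.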

How the data were processed

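RNA-seq of 33 libraries of sorted brain cells was analysed, 6 inhibitor and 5 vehicle libraries in each of 3 populations, grouped by the labels. Per the labels' protocols, RNA was amplified with SMART-Seq v4, with more cycles for low input, which are not given per library. The submitters' processing notes name bcl2fastq and GRCm38, while no aligner or counter is named. The levels are the log2(FPKM + 1) values deposited by the authors for 27745 rows, whose 75th percentile is 2.94 in every library. Expected counts, also deposited by the authors, cover 21950 protein-coding genes, and 16.3% of them are not whole numbers. These counts served only for depth and detected genes, rounded, since the 201 transcripts are absent from them, so no count-based test of them was possible and the fragments behind each value are unknown.

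Rows with a mean of at least 1 over the libraries compared were tested with limma 3.58.1 (trend and robust variance, R 4.3.3), a separate fit for each comparison, and called at a Benjamini-Hochberg adjusted p under 0.05 with no fold threshold. The fit was tested on simulated data. A log2 difference on the log2(FPKM + 1) scale understates the change of low rows. Alternatives changed the filter, pseudocount, scaling (edgeR 4.0.16), libraries, weights and covariates. Matches were found with blastn 2.17.0 and GENCODE M21 transcripts. The text names Malat1, Neat1, the Snhg genes, the 8 highest means, up to 8 called transcripts per direction with a log2 difference of at least 1 and the smallest p in the inhibitor comparisons and 5 in the population comparisons, and up to 3 with the smallest p where none was called. Named outside this rule after their values were seen were Gm45223, Gm45220, C920009B18Rik, 1300002E11Rik, 9930104L06Rik, Gm10275, Gm10177 and the mitochondrial copies. The transcripts and lists were chosen with earlier results of these data known. Same-numbered libraries did not deviate together in all pairs of any comparison, so no block entered the main fits. A check by number cannot tell whether libraries of different populations came from the same animals. No column was left unmatched (0). The list of paraspeckle proteins is not reported here.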

Additional observations from a re-analysis of the deposited data

Results flagged for a closer look

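Of 372 sets of a transcript and a group examined for 1 library far from the rest, 27 held one; chance gives about 1 in 20. In resting microglia vehicle replicate 5 was the low library for Neat1 (4.09, the other 4 at 5.62 to 5.86), Gm37376 (7.87, others 9.71 to 10.24), Gm37472 (2.31, others 3.77 to 4.23), Gm45222 (1.92, others 3.43 to 4.04) and Gm26809 (3.02, others 3.98 to 4.28). In activated microglia vehicle replicate 2, one of the libraries with few detected genes, stood apart for Gm37376 (11.63, others 10.71 to 10.94), 4632427E13Rik (2.44, others 3.71 to 4.20), Gm10557 (2.15, others 3.29 to 3.70), Gm5884 (3.55, others 1.89 to 2.28) and Gm13443 (listed at 0.0, others 2.56 to 3.06). In the same population inhibitor replicate 1 was low for Gm15931 (0.84, others 2.65 to 3.46) and for Gm5884 (listed at 0.0, others 1.44 to 2.28).

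In blood-derived phagocytes the inhibitor libraries that stood apart were replicate 4 for 1810026B05Rik (5.75, others 6.0 to 6.11) and Gm15539 (2.94, others 2.10 to 2.39), replicate 1 for Gm36161 (6.89, others 7.21 to 7.37) and replicate 6 for Gm26809 (3.48, others 3.94 to 4.21). The vehicle libraries were replicate 2 for Snhg15 (3.63, others 4.38 to 4.56), replicate 1 for 2610005L07Rik (4.51, others 4.73 to 4.81), and replicate 4 for Gm26885 (2.13, others 1.59 to 1.75) and Gm13443 (2.57, others 3.19 to 3.39).

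In resting microglia under inhibitor, replicate 2 was low for Gm10123 (6.32, others 7.15 to 7.41), replicate 6 was low for Gm3375 (2.49, others 3.03 to 3.34) and high for A830008E24Rik (5.24, others 4.12 to 4.49), and replicate 1 was high for 1810026B05Rik (7.60, others 6.67 to 6.77) and F630028O10Rik (0.33, others 0.00 to 0.08). Under vehicle, replicate 1 was high for Gm37347 (0.59, others 0.12 to 0.19) and replicate 2 for I830127L07Rik (0.69, others 0.00 to 0.20). All values are log2(FPKM + 1), and what set these libraries apart was not tested.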

How the results depend on the processing

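The count of transcripts higher under inhibitor in blood-derived phagocytes, 24, became 0 with no filter on low rows and 0 with all 33 libraries in 1 fit. It was 47 with array quality weights and 42 with detected genes as a covariate, and leaving out 1 library gave 1 to 50. The summed level of the Y-linked genes Ddx3y, Kdm5d, Eif2s3y and Uty ran from 0 to 15.5 in inhibitor and from 0 to 15.2 in vehicle phagocytes. Both sexes were thus present, and with this level as a covariate the count was 27. With a replicate block the count was 39, and for the difference of effects between phagocytes and resting microglia the block gave 1, against 0. The block joined libraries by their number. In vehicle replicate 1 the Y-linked level was 0 in phagocytes, 16.8 in activated and 0.05 in resting microglia. Same-numbered libraries of different populations thus did not all come from the same animals, and the block counts rest on no known pairing. The cause of these shifts was not tested. The median of 0.25 was 0.12 over those that overlap no coding gene, copies included. For the inhibitor in activated microglia all 33 libraries in 1 fit gave 7, 2 higher and 5 lower, against 0; leaving out 1 library gave 0 to 0 there, in resting microglia and for each difference of effects. Between populations of vehicle mice, detected genes as a covariate gave 83 for phagocytes against resting microglia and 51 for activated against resting microglia, and no filter gave 22 for phagocytes against activated microglia; leaving out 1 library gave 141 to 154, 75 to 89 and 84 to 119. Snhg15 in activated against resting microglia changed sign with that covariate (-0.040, against 0.75, which did not pass either). Over the named transcripts, other settings left 470 values on their side of the threshold with the same direction, 35 no longer passed, 9 newly passed and 1 changed sign. Without the counts behind the values, depth sets no limit that can be given for a single transcript.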
